A study of Mus musculus with 18 samples.

Results

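The hippocampal transcriptome of *Ccny* KO mice that had gone through original and reversal learning in the Morris water maze (KO_RL) was compared with that of untrained *Ccny* KO mice (KO_Basal). These are 6 of the 18 libraries of the study, 3 per group and chosen by their labels for genotype and training, and all 15329 genes listed were compared. Every mouse was C57BL/6J and 8 to 10 weeks old, and the maze protocol names males. In original learning a mouse learns over several days to find a hidden platform in a pool, and in reversal learning the platform is moved to the opposite quadrant and has to be learned again. The KO_RL mice had done both tasks and the KO_Basal mice neither, and the KO allele is common to all 6. The study also holds KO mice after original learning only (KO_OL) and the wild-type groups WT_Basal, WT_OL and WT_RL, which were used here for context. Each library is from the hippocampus of 1 mouse by its label, and neither the time between the last swim and dissection nor the litter or batch of a mouse is given in the sources used here. The design of the KO allele is likewise not given there.

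*Ccny* encodes cyclin Y, a membrane-associated cyclin found at synapses. Neuronal activity first induces immediate early genes, many of them transcription factors of the *Fos*, *Jun* and Egr families, and then effector genes that act at synapses. Swimming training is also a physical and stressful experience. Adrenal glucocorticoids act on the hippocampus through nuclear receptors that switch on a recognised set of target genes, among them *Fkbp5* and *Tsc22d3*. Actin filaments, which are remodelled by small GTPases and by cofilin, give dendritic spines their shape.

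Between 30073161 and 33694294 reads per library lay on the listed genes in the 6 KO_Basal and KO_RL libraries, and 29248557 to 37915576 over all 18. The unit is CPM, the reads of a gene per 1000000 reads of its library after TMM scaling, and 1 read corresponded to 0.0302 to 0.0325 CPM. The targeted gene was checked first. *Ccny* stood at 95.8, 90.5 and 89.6 CPM in the KO_Basal mice and 76.2, 84.3 and 78.6 CPM in the KO_RL mice, against 158, 150 and 158 CPM in WT_Basal, and the highest of all 9 KO libraries lay below the lowest of all 9 WT libraries, at 107 CPM. Its transcript was therefore lower but not absent in the KO mice. Between KO_RL and KO_Basal the log2 difference of *Ccny* was -0.21 ± 0.11 (SE), adjusted p = 0.172, which did not pass the test although the groups did not overlap. Libraries differed in marker genes of neighbouring tissue. The summed CPM of 24 choroid plexus markers ranged from 296 to 13322 over the 18 libraries, and the summed CPM of 18 hypothalamic neuron markers was 155 in KO_Basal 1 against 18.2 to 41.2 in the other 17. Markers of red blood cells and of the pituitary were mostly not listed, with 3 of 9 and 4 of 11 present.

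Reversal-trained and untrained KO mice differed in 3612 of 15329 genes (23.6%) by limma at an adjusted p under 0.05. Of these, 1776 were higher (11.6%) and 1836 lower (12%) in KO_RL, and the changes were mostly modest. Past 1.5-fold as well, 335 genes (2.19%) were higher and 368 (2.40%) lower. By the criteria of 1.5-fold and an unadjusted p under 0.05, 801 genes (5.23%) differed, 409 (2.67%) higher and 392 (2.56%) lower. Every KO_RL mouse lay above every KO_Basal mouse in 3481 genes (22.7%) and below in 3466 (22.6%), and the median log2 difference over all genes was -0.00, with 7590 genes above 0. The number of calls depended on single mice. Without KO_Basal 1, KO_Basal 2 or KO_RL 3, 2091, 2338 and 2326 genes were called.

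**Figure D1:**
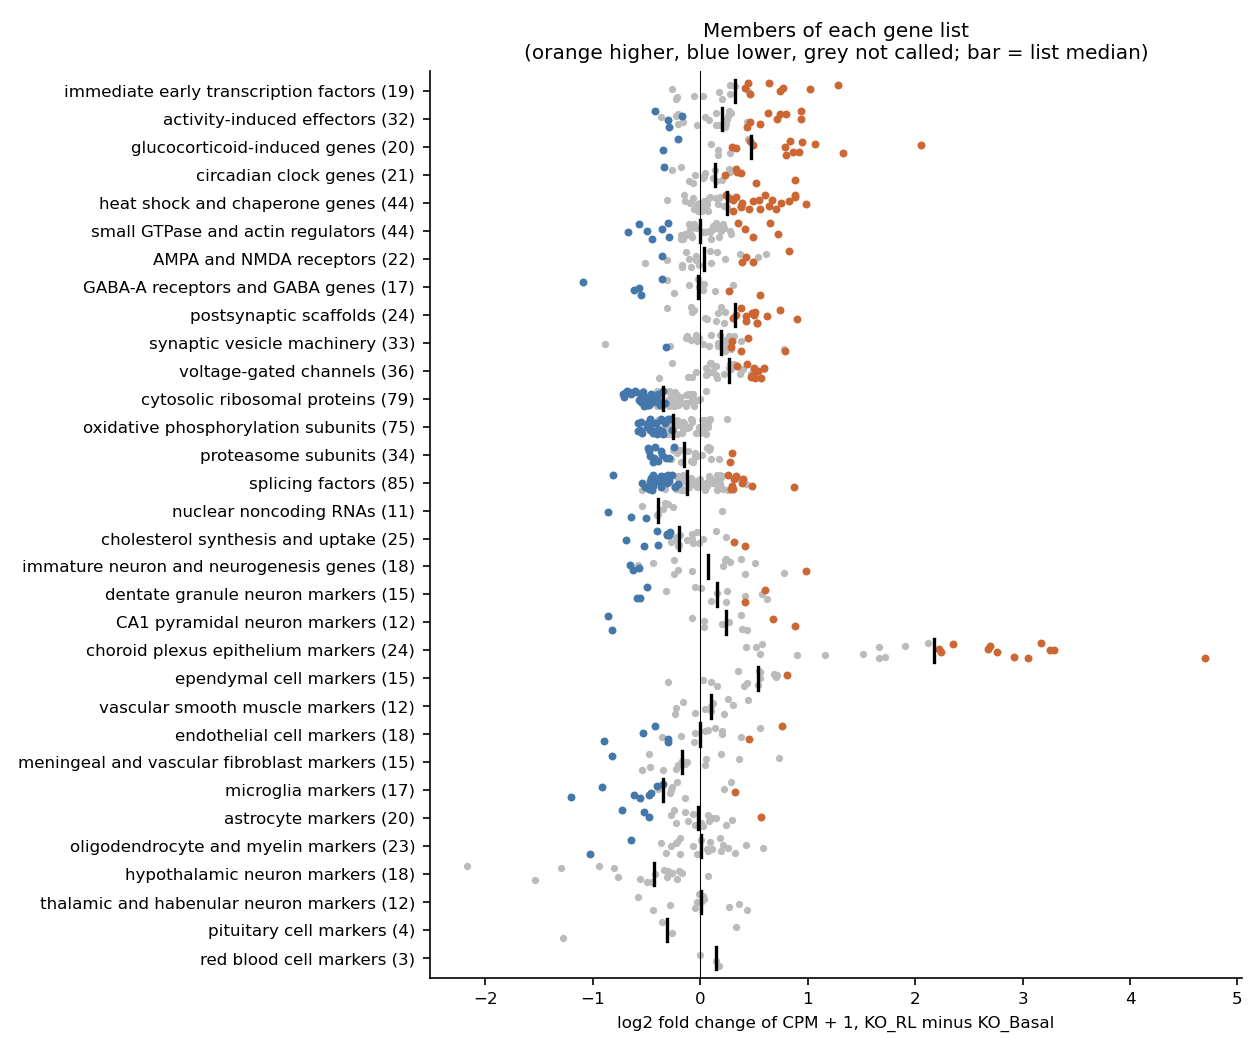
Log2 difference of CPM + 1, KO_RL minus KO_Basal (x axis), for each member of the gene lists (y axis, number of listed members in brackets). Orange points are higher and blue points lower at an adjusted p under 0.05, grey points were not called, and the bar is the median of the list. Choroid plexus markers lie farthest to the right, with a median of 2.17, and ribosomal protein genes lie to the left, with a median of -0.34.

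The largest rises by fold were those of genes of the choroid plexus, the epithelium that makes cerebrospinal fluid and borders the hippocampus in the ventricle. The 12 genes that led the comparison were *Ttr*, *Slc4a5*, *F5*, *Clic6*, *Aqp1*, *Folr1*, *Cldn2*, *Tmem72*, *Kcne2*, *Prlr*, *Kcnj13* and *Enpp2*. *Ttr*, which encodes the thyroxine and retinol carrier transthyretin, was at 23.1, 597 and 50.9 CPM in the KO_Basal mice and 4541, 1187 and 2429.6 CPM in the KO_RL mice (log2 difference 4.70 ± 1.57 (SE), adjusted p = 0.0405). *Aqp1*, a water channel, went from 0.540, 4.56 and 0.553 CPM in KO_Basal to 37.2, 9.07 and 18.8 CPM in KO_RL (3.05 ± 0.93 (SE), adjusted p = 0.0264). For both genes the KO_Basal mice spread widely, with KO_Basal 2 far above its group, and KO_RL 1 was the highest of the 6. The groups did not overlap, which the choice of these 12 genes required. Of the 24 listed markers, 12 (50%, against 11.6% of all genes) rose and the other 12 were above 0 without passing. The median log2 difference of the list was 2.17, against -0.00 over all genes.

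Summed over the list, the markers came to 323, 1264 and 395 CPM in KO_Basal and to 8084, 2271 and 4139 CPM in KO_RL. The same sum was 3959, 1589 and 6817 CPM in WT_Basal and 296, 1525 and 13322 CPM in WT_RL, so that 2 of the 3 untrained WT mice lay within the range of the trained KO mice and trained WT mice spread over the whole range. Markers of ciliated ependymal cells, which line the ventricle, came to 92.2, 77.1 and 63.4 CPM in KO_Basal and 172, 61.1 and 90.4 CPM in KO_RL. *Tekt1* alone of 15 rose (6.67%, against 11.6% of all genes). It lost its call without any 1 of the KO_Basal mice, KO_RL 1 or KO_RL 3 (adjusted p up to 0.124). None of the 24 listed markers kept its call without KO_Basal 1, KO_Basal 3, KO_RL 1 or KO_RL 3, where the adjusted p of *Ttr* was up to 0.167, and without KO_Basal 2 there were 9 calls. *Cldn2*, which is not among the 24, lost its call without KO_Basal 1, KO_RL 1 or KO_RL 3 (adjusted p up to 0.0662). With the mean of these markers as a covariate over the 18 libraries, a fit added after the data were seen, 2999 genes were called. Marker genes enter that covariate, so their own differences shrink by construction, and of the leading 12 *Folr1* and *Cldn2* were still called (adjusted p = 0.0469 and 0.0206). In that fit *Hspb1*, *Hspa1a*, *Hspa1b*, *Gabra3*, *Gabrg3*, *Kcna1*, *Rps14*, *Ndufb8*, *Atp5l*, *Elavl4*, *Neurod1*, *Top2a*, *Calb1*, *Tekt1*, *Tyrobp*, *Aif1*, *Otof* and *Dcn* were not called, with adjusted p from 0.0512 to 0.537. Most of these genes are described further on. Falls in the fit numbered 16 of 79 among ribosomal protein genes and 10 of 75 among oxidative phosphorylation genes. In bulk tissue, fewer cells of a type and less RNA per cell cannot be told apart.

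**Figure D2:**
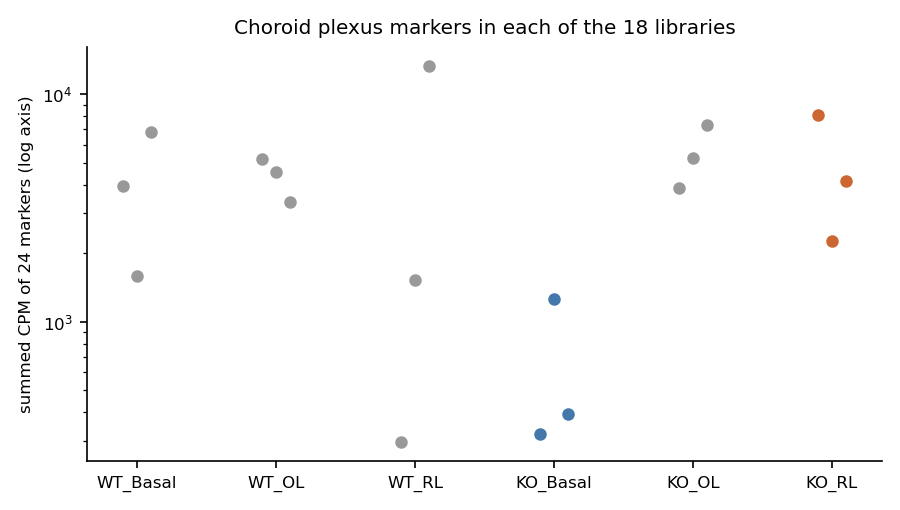
Summed CPM of the 24 choroid plexus markers (y axis, log scale) in each of the 18 libraries (points), by group (x axis). The 3 KO_Basal libraries sit between 323 and 1264 CPM, the 3 KO_RL libraries between 2271 and 8084, and WT_RL spans 296 to 13322.

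Immediate early transcription factors were higher in the reversal-trained KO mice, but not all of them. Of 19 listed genes (of 20 in the list), 8 rose (42.1%, against 11.6% of all genes), and the median log2 difference was 0.32. *Fosb*, a *Fos* family subunit of AP-1 with a long-lived short form, was at 3.75, 5.54 and 5.60 CPM in the KO_Basal mice and 12.9, 15.9 and 11.5 CPM in the KO_RL mice (chr7:19302696-19310051 in mm10; log2 difference 1.28 ± 0.15 (SE), adjusted p = 5.42e-05). Every KO_RL mouse held more than 2 times the CPM of any KO_Basal mouse. *Egr4*, a zinc finger factor, went from 11.03, 12.5 and 15.7 CPM in KO_Basal to 27.7, 24.3 and 30.1 CPM in KO_RL (1.02 ± 0.12 (SE), adjusted p = 6.07e-05). *Egr1* was at 77.3, 112 and 145 CPM in the KO_Basal mice and 182, 166 and 206 CPM in the KO_RL mice (0.77 ± 0.16 (SE), adjusted p = 0.00306), and here KO_Basal 1 was the lowest and KO_Basal 3 came close to KO_RL 2. *Fosl2*, another AP-1 subunit, rose from 34.8, 35.7 and 49.5 CPM in KO_Basal to 58.5, 78.9 and 64.2 CPM in KO_RL (0.74 ± 0.18 (SE), adjusted p = 0.0078). *Maff*, *Klf4*, *Egr3* and *Jund* also rose, by 0.42 to 0.64 on the log2 scale.

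Other members did not pass, or lay near 0. *Fos* was at 10.6, 15.6 and 21.9 CPM in the KO_Basal mice and 12.7, 15.3 and 16.7 CPM in the KO_RL mice, and the groups overlapped fully (-0.06 ± 0.22 (SE), adjusted p = 0.88). *Npas4*, *Junb* and *Nr4a1* had log2 differences of -0.26, -0.22 and 0.02 with adjusted p from 0.295 to 0.944. These members were named after their values were seen. In WT mice *Fos* was 1.08 higher in WT_RL than in WT_Basal on the log2 scale (adjusted p = 0.00403). The difference between the genotypes was -1.14 with an unadjusted p of 0.00201, and with an adjusted p of 0.908 it did not pass.

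Among 32 activity-induced effector genes, which act downstream at synapses and in signalling, 9 rose (28.1%) and 4 fell (12.5%). Over all genes 11.6% were higher and 12% lower, so the share of falls was near that of all genes. *Nptx2*, a secreted pentraxin that gathers AMPA receptors, was at 19.6, 22.1 and 16.95 CPM in the KO_Basal mice and 37.6, 32.7 and 45.1 CPM in the KO_RL mice (0.94 ± 0.14 (SE), adjusted p = 0.000296). *Vgf*, a neuropeptide precursor induced by BDNF, was at 109.6, 118 and 126 CPM in the KO_Basal mice and 203, 197 and 214 CPM in the KO_RL mice (0.79 ± 0.10 (SE), adjusted p = 9.33e-05). Both genes were tightly grouped, with all KO_RL mice above all KO_Basal mice. *Dusp5*, a nuclear phosphatase of ERK, went from 3.85, 6.17 and 5.99 CPM in KO_Basal to 10.5, 11.8 and 10.6 CPM in KO_RL (0.94 ± 0.17 (SE), adjusted p = 0.00107). *Rasd1*, a Ras-related protein that is also induced by dexamethasone, rose by 0.74 (adjusted p = 0.00735). *Dusp4*, *Spry4* and *Spred2*, which also restrain ERK signalling, rose by 0.63, 0.72 and 0.55, while *Dusp1* (-0.21, adjusted p = 0.403), *Dusp6* (-0.03, 0.857), *Spry2* (0.15, 0.279) and *Spred1* (0.05, 0.759) of the same families did not pass. The 4 that fell were *Btg2*, *Rgs2*, *Rheb* and *Arf4*, by 0.17 to 0.42. Without KO_Basal 1, KO_Basal 2, KO_RL 2 or KO_RL 3 the list held 2 falls, and 1 after GC correction. *Arc*, which acts in AMPA receptor endocytosis, was at 90.8, 172 and 188 CPM in the KO_Basal mice and 171, 162 and 172 CPM in the KO_RL mice, and KO_Basal 1 alone lay below all others (0.23 ± 0.26 (SE), adjusted p = 0.555). *Bdnf* was at 48.7, 53.9 and 51.5 CPM in the KO_Basal mice and 43.3, 46.5 and 47.9 CPM in the KO_RL mice (-0.16 ± 0.15 (SE), adjusted p = 0.472). Neither passed.

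Genes that glucocorticoids induce were higher in most cases. Of 20 genes, 13 rose (65.0%) and 2 fell (10.0%), against 11.6% higher and 12% lower of all genes. The median log2 difference was 0.48. *Plin4*, a lipid droplet coat protein, was at 3.15, 3.45 and 2.08 CPM in the KO_Basal mice and 21.5, 14.3 and 10.9 CPM in the KO_RL mice (chr17:56100591-56109803; 2.06 ± 0.36 (SE), adjusted p = 0.00081). The ratio of the means was 5.38, and KO_RL 1 was the highest. *Zbtb16*, a zinc finger transcription factor, went from 35.1, 34.2 and 41.7 CPM in KO_Basal to 80.3, 108 and 95.3 CPM in KO_RL (1.33 ± 0.15 (SE), adjusted p = 3.48e-05). *Cdkn1a*, the cell cycle inhibitor p21, was at 7.92, 8.93 and 7.58 CPM in the KO_Basal mice and 21.1, 15.7 and 17.999 CPM in the KO_RL mice (1.07 ± 0.19 (SE), adjusted p = 0.000859). *Map3k6*, a stress-activated kinase of the ASK family, went from 3.34, 3.64 and 2.86 CPM in KO_Basal to 8.10, 6.14 and 7.55 CPM in KO_RL (0.95 ± 0.16 (SE), adjusted p = 0.000598). In these 4 genes the groups were clearly apart.

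*Fkbp5*, the cochaperone that dampens the glucocorticoid receptor, was at 65.5, 70.5 and 75.8 CPM in the KO_Basal mice and 127, 134 and 141 CPM in the KO_RL mice (0.92 ± 0.13 (SE), adjusted p = 0.000171). *Tsc22d3*, which encodes the leucine zipper protein GILZ, was at 74.04, 81.8 and 74.5 CPM in the KO_Basal mice and 135, 134 and 131 CPM in the KO_RL mice (0.79 ± 0.10 (SE), adjusted p = 7.76e-05). Both were among the most uniform responses, with the KO_RL mice close together. *Sgk1*, a kinase induced by glucocorticoids, was at 81.8, 91.8 and 63.1 CPM in the KO_Basal mice and 193, 133 and 114 CPM in the KO_RL mice (0.87 ± 0.29 (SE), adjusted p = 0.0416), and KO_RL 1 was far above the other KO_RL mice. The remaining risers were *Hif3a*, *Arrdc2*, *Errfi1*, *Sult1a1*, *Mertk* and *Klf9*, and *Cdo1* and *Ddit4* fell by 0.35 and 0.21. With 1 mouse left out at a time, 9 (without KO_Basal 1) to 12 genes were called higher, and the falls passed in neither gene without KO_Basal 1 or KO_RL 2. With the choroid plexus markers as a covariate 9 were higher. In the KO_OL mice, compared with the same KO_Basal mice, 6 of the 20 were higher and 2 lower, against 11.2% and 12.3% of all genes.

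In the circadian clock list 2 of the 3 period genes rose. Of 21 genes, 6 rose (28.6%) and *Nr1d2* fell (4.76%), against 11.6% higher and 12% lower of all genes. The fall was lost without any 1 of the KO_Basal mice, KO_RL 1 or KO_RL 3. *Per2*, a repressor subunit of the clock that glucocorticoids and activity also induce, was at 29.6, 37.000 and 38.9 CPM in the KO_Basal mice and 65.7, 65.5 and 64.4 CPM in the KO_RL mice (0.88 ± 0.10 (SE), adjusted p = 3.03e-05). *Per1* was at 66.1, 73.8 and 82.7 CPM in the KO_Basal mice and 98.2, 98.1 and 93.5 CPM in the KO_RL mice (0.38 ± 0.08 (SE), adjusted p = 0.0032). The KO_RL mice lay close together in both genes, and the groups did not overlap. *Per3* was at 28.8, 35.04 and 40.8 CPM in the KO_Basal mice and 37.4, 48.1 and 40.4 CPM in the KO_RL mice, which overlapped (0.27 ± 0.12 (SE), adjusted p = 0.111). *Nfil3*, a repressor that opposes the D-box activators, went from 7.12, 6.61 and 7.65 CPM in KO_Basal to 12.1, 10.1 and 9.78 CPM in KO_RL (0.52 ± 0.09 (SE), adjusted p = 0.00119). *Bhlhe40* rose by 0.35 with overlapping groups, and lost its call without KO_Basal 1, KO_Basal 2, KO_RL 2 or KO_RL 3, with adjusted p up to 0.224. *Cry2* and *Csnk1d* rose by 0.33 and 0.23. Without KO_Basal 1, KO_Basal 2 or KO_RL 3 the list held 4 risers, and it held 2 after correction for GC content and transcript length, when its median went from 0.14 to near 0. The hour of dissection is not given in the sources used here.

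Molecular chaperones rose in both the cytosol and the endoplasmic reticulum. Of 44 genes, 21 rose (47.7%, against 11.6% of all genes) and 23 did not pass, and the median log2 difference was 0.25. Cytosolic chaperones refold proteins after heat and other stress under the factor HSF1. Chaperones of the endoplasmic reticulum are induced by the unfolded protein response, through ATF6 and XBP1. The promoters of both kinds were read from RefSeq (GRCm38.p6), 250 bases before each gene's start, for 36 of the 44 genes. The ER stress element, CCAAT and CCACG with 9 bases of any kind between them, searched on both strands, was in 6 of them, namely *Hspa5*, *Hsp90b1*, *Pdia6*, *Calr*, *Canx* and *Creld2*, and in 35 of all 27025 promoters (0.130%). All 6 genes rose. The heat shock element GAANNTTC, the same on both strands, was in 9 of the 36 and in 7.73% of all promoters, and 4 of the 9 rose, *Hspa1a*, *Hspa1b*, *Hspb1* and *Dnaja4*. A match is a description of letters and not of a bound site. The promoters of 3 genes of the endoplasmic reticulum and of the small heat shock protein gene *Hspb1* are shown because they carry the matches, 5′ to 3′ on the strand of the gene, with the matches in capitals: *Hspa5* at chr2:34771840-34772089 on the plus strand, *Hsp90b1* at chr10:86705445-86705694 on the minus strand, *Calr* at chr8:84846932-84847181 on the minus strand, and *Hspb1* at chr5:135887669-135887918 on the plus strand.
Hspa5: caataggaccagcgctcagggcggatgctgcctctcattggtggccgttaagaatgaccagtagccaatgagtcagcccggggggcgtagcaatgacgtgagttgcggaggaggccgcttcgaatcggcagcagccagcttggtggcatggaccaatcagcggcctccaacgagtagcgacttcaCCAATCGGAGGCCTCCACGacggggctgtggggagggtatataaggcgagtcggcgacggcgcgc
Hsp90b1: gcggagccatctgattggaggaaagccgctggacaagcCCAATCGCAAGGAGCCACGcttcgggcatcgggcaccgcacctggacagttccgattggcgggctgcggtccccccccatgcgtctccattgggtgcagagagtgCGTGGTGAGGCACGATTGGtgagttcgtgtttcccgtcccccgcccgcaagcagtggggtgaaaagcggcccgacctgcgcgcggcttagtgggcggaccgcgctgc
Calr: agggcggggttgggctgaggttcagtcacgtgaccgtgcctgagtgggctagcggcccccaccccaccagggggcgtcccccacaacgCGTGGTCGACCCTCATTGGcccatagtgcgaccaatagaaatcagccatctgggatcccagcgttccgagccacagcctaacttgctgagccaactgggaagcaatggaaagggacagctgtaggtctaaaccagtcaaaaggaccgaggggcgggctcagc
Hspb1: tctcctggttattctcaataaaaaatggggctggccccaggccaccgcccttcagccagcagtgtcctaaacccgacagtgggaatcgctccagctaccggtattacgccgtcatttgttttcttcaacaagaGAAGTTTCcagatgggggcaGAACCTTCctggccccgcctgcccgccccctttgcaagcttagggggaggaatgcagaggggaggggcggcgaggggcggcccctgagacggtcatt

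The match in the *Hspa5* promoter begins 65 bases before the start, and those of *Hsp90b1* 212 and 107 bases before it. *Hspa5*, which encodes the ER chaperone BiP, was at 238, 244 and 235 CPM in the KO_Basal mice and 472, 355 and 389 CPM in the KO_RL mice (0.75 ± 0.13 (SE), adjusted p = 0.000733). *Hsp90b1*, the ER member of the HSP90 family, was at 348, 346 and 357 CPM in the KO_Basal mice and 468, 401 and 429.8 CPM in the KO_RL mice (0.30 ± 0.10 (SE), adjusted p = 0.0312), and *Calr*, the lectin chaperone calreticulin, at 302, 327 and 323 CPM in the KO_Basal mice and 434, 379.8 and 424 CPM in the KO_RL mice (0.38 ± 0.08 (SE), adjusted p = 0.00315). The KO_Basal mice of all 3 genes lay close together, and the KO_RL mice lay above them with KO_RL 1 highest. *Pdia4*, a disulfide isomerase of the same compartment, went from 30.9, 33.7 and 32.02 CPM in KO_Basal to 72.7, 51.7 and 57.8 CPM in KO_RL (0.88 ± 0.13 (SE), adjusted p = 0.000309).

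On the cytosolic side, *Hspb1* was at 3.02, 2.82 and 4.30 CPM in the KO_Basal mice and 10.95, 6.51 and 6.04 CPM in the KO_RL mice (0.99 ± 0.27 (SE), adjusted p = 0.0145) and *Hspa1a*, the inducible HSP70, at 4.58, 4.78 and 5.01 CPM in the KO_Basal mice and 13.3, 8.74 and 7.67 CPM in the KO_RL mice (0.88 ± 0.24 (SE), adjusted p = 0.0141). KO_RL 1 again stood above the other KO_RL mice in both. *Hspb1* lost its call without KO_Basal 1, KO_Basal 2 or KO_RL 1, with adjusted p up to 0.0752, and *Hspa1a* without KO_Basal 1 or KO_RL 1, up to 0.0731. *Hspa1b* rose by 0.83, and not without KO_Basal 1, KO_Basal 3 or KO_RL 1 (adjusted p up to 0.123). It is a near-identical copy of *Hspa1a*, so the counts of both are uncertain. *Hsph1*, an HSP110 partner of HSP70, was at 269, 274 and 272 CPM in the KO_Basal mice and 466, 393 and 413 CPM in the KO_RL mice (0.64 ± 0.12 (SE), adjusted p = 0.00119). The list as a whole held 13 risers without KO_Basal 1 or KO_RL 1 and 11 with the choroid plexus covariate. KO_RL 1, the highest of the KO_RL mice in these genes, also had the highest choroid plexus sum of its group, 8084 CPM, and the part of that tissue in the chaperone values was not otherwise tested. The glucocorticoid list gives a further promoter to set beside these. The glucocorticoid response element, searched as AGAACA and TGTTCT with 3 bases of any kind between them, was found in 1 of 18 promoters of that list, that of *Sgk1* at chr10:21993640-21993889 on the plus strand, 189 bases before the start, and in 3 of all 27025 (0.0111%).
Sgk1: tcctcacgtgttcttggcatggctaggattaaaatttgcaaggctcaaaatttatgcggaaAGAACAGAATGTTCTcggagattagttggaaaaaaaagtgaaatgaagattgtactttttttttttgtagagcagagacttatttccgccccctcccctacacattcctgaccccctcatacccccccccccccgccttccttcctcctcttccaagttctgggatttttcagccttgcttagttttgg

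**Figure D3:**
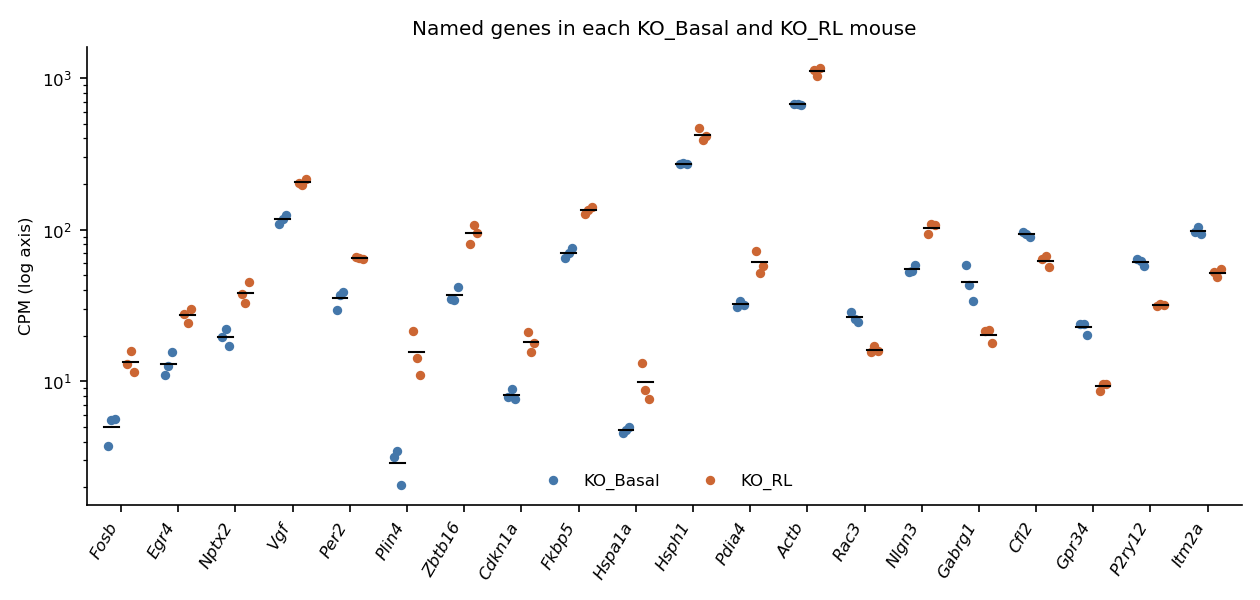
CPM (y axis, log scale) of named genes (x axis) in each of the 3 KO_Basal (blue) and 3 KO_RL (orange) mice, with the group mean as a bar. The groups do not overlap in any gene shown, for example 3.75 to 5.60 against 11.5 to 15.9 CPM for *Fosb* and 20.2 to 23.99 against 8.68 to 9.62 CPM for *Gpr34*. The genes are a selection from those described in the text, and members with overlapping groups, such as *Fos* and *Per3*, are not shown. Over all genes the groups did not overlap in 45.3%.

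Genes of the actin cytoskeleton and its small GTPase regulators moved in both directions. Of 44 listed genes (of 47), 5 rose (11.4%) and 7 fell (15.9%), shares near the 11.6% and 12% of all genes, and the median was -0.01. *Actb*, cytoplasmic beta-actin, was at 672, 679 and 664 CPM in the KO_Basal mice and 1132, 1029.7 and 1168 CPM in the KO_RL mice (0.72 ± 0.09 (SE), adjusted p = 7.27e-05). The KO_Basal mice lay close to each other and all KO_RL mice were far above them. *Cfl2*, an actin-severing cofilin, fell from 96.9, 93.2 and 89.6 CPM in KO_Basal to 63.7, 66.7 and 57.05 CPM in KO_RL (-0.57 ± 0.08 (SE), adjusted p = 0.000181). *Rac3*, a small GTPase found mainly in the nervous system, was at 28.8, 25.8 and 24.5 CPM in the KO_Basal mice and 15.6, 17.1 and 15.8 CPM in the KO_RL mice (-0.67 ± 0.13 (SE), adjusted p = 0.00177), with no overlap.

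*Ssh1*, a phosphatase that activates cofilin, rose from 7.88, 6.96 and 8.79 CPM in KO_Basal to 13.6, 14.8 and 10.5 CPM in KO_RL (0.65 ± 0.12 (SE), adjusted p = 0.00133). Its relative *Ssh2* rose by 0.42, as did *Actg1* and *Wasf2* by 0.35 and 0.49. *Pfn2*, the neuronal profilin that feeds actin monomers to growing filaments, was at 636, 667 and 628 CPM in the KO_Basal mice and 423, 501 and 445 CPM in the KO_RL mice (-0.50 ± 0.08 (SE), adjusted p = 0.000367), and *Cdc42*, the GTPase of filopodia, at 397, 409 and 360.2 CPM in the KO_Basal mice and 309, 304 and 296 CPM in the KO_RL mice (-0.36 ± 0.07 (SE), adjusted p = 0.00122). The subunits *Arpc3* and *Arpc5l* of the ARP2/3 complex and the depolymerising factor *Dstn* fell by 0.45, 0.30 and 0.29. Other genes that the study's text takes up did not pass. *Limk1*, the kinase that inactivates cofilin, had a log2 difference of 0.12 (adjusted p = 0.367), *Wasf3* 0.18 (0.0833), *Pak3* -0.14 (0.627), *Pak6* -0.10 (0.66), *Ssh3* -0.09 (0.775) and *Wasl* 0.02 (0.938). *Acta1* and *Acta2*, muscle actins, were at -0.16 and 0.22.

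Several GABA-A receptor subunit genes were lower. Of 17 genes of GABA-A receptors and GABA handling, 5 fell (29.4%) and 2 rose (11.8%), against 12% lower and 11.6% higher of all genes. *Gabrg1*, a gamma subunit, was at 58.6, 42.9 and 33.9 CPM in the KO_Basal mice and 21.3, 21.8 and 17.8 CPM in the KO_RL mice (-1.09 ± 0.16 (SE), adjusted p = 0.000235). It fell with no overlap, and KO_Basal 1 was the highest. *Gabra3* and *Gabra4* fell by 0.61 and 0.36, and the number called lower in the list was 5 in each fit without 1 mouse. The rises, *Gabrg3* among them, did not hold without KO_Basal 2, KO_Basal 3, KO_RL 2 or KO_RL 3. The GABA synthesis gene *Gad1* was at 354, 355 and 389.8 CPM in the KO_Basal mice and 352, 394 and 368 CPM in the KO_RL mice and did not pass.

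Of 22 AMPA and NMDA receptor genes, 4 rose (18.2%) and *Gria4* fell (4.55%), against 11.6% higher and 12% lower of all genes. The fall was not called without KO_Basal 1, KO_Basal 2, KO_RL 1 or KO_RL 3. *Grin2a*, the NMDA receptor subunit that gains in the adult forebrain, was at 32.2, 36.1 and 38.01 CPM in the KO_Basal mice and 54.4, 76.02 and 61.6 CPM in the KO_RL mice (0.83 ± 0.25 (SE), adjusted p = 0.0253). *Grin1*, its obligatory partner, was at 356, 392 and 430.3 CPM in the KO_Basal mice and 489, 530.3 and 521 CPM in the KO_RL mice (0.39 ± 0.12 (SE), adjusted p = 0.0328). No call of a rise in this list held without KO_Basal 1, KO_Basal 2, KO_RL 2 or KO_RL 3, where the adjusted p of *Grin2a* was up to 0.0932. Among 24 scaffold and adhesion genes of the postsynapse 13 rose (54.2%, against 11.6% of all genes). With 1 mouse left out at a time, 9 (without KO_RL 2) to 12 were called higher. *Nlgn3*, an adhesion partner of neurexins, went from 52.6, 53.2 and 58.1 CPM in KO_Basal to 93.8, 109 and 107 CPM in KO_RL (0.90 ± 0.13 (SE), adjusted p = 0.000197), and *Shank1*, a master scaffold of excitatory synapses, was at 237, 269 and 259.9 CPM in the KO_Basal mice and 386, 483 and 421 CPM in the KO_RL mice (0.75 ± 0.13 (SE), adjusted p = 0.000857). *Shank2*, *Baiap2* and *Nlgn2* also rose. The presynaptic list held 5 risers of 33 (15.2%, near the 11.6% of all genes), led by *Bsn*, the active zone scaffold bassoon (0.79, adjusted p = 0.00399), and 3 without KO_Basal 1, KO_Basal 3, KO_RL 2 or KO_RL 3. Among 36 voltage-gated channels 9 rose (25%, against 11.6% of all genes), such as *Cacna1a* and *Kcna1* by 0.56 and 0.60. There were 4 rises without KO_Basal 1 and 5 without KO_RL 2. *Kcna1* lost its call in every fit without 1 mouse.

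These synaptic transcripts are long, and the log2 difference followed transcript length and GC content over all genes. In the bin of genes with the lowest GC content, of 10 bins (median 39.7%), the median log2 difference was -0.25 and 38.1% of genes were lower. In the highest (59.8%) it was 0.12 and 23.4% were higher. From the bin of the shortest transcripts (median 1059.5 bases) to that of the longest (8365 bases) it went from -0.18 to 0.19. Genes called higher had a median GC content of 54.0% and those called lower 43.5%, against 49.9% among the others. After correction of each library for both trends, 3 of the 24 scaffold genes and 1 of the 36 channels were called higher, and the list medians were 0.07 and 0.04 in place of 0.32 and 0.27. In the AMPA and NMDA list *Grin2a* kept its call (adjusted p = 0.0138) and 2 genes in all were called higher, the vesicle list lost all 5 rises, and 4 genes of the GABA list were called lower. Single calls were lost as well. After both corrections *Cfl2* had a log2 difference of -0.17 (adjusted p = 0.0857), *Shank1* of 0.34 (0.120) and *Rian* of -0.45 (0.0722). *Fosl2*, *Per1*, *Bhlhe40*, *Hspa1a*, *Hspa1b*, *Shank2*, *Bsn*, *Grin1*, *Gabrg3*, *Cacna1a* and *Kcna1* did not pass either. Nor did *Cox7b*, *Ndufb8*, *Atp5l*, *Slc1a2*, *Aif1*, *Neurod1*, *Calb1*, *Dcn* and *Opalin*. The adjusted p of the genes in these 2 groups ran from 0.0511 to 0.504. Among the largest differences, the choroid plexus genes *Slc4a5*, *F5*, *Clic6*, *Tmem72*, *Kcne2* and *Enpp2* and the gene *Mir703* lost their calls. Called values that shrank by over 1.5 times without losing the call were those of *Gpr34* (-0.72), *P2ry12* (-0.53), *Tyrobp* (-0.35), *Itm2a* (-0.57), *Elavl4* (-0.41), *Tmem196* (-0.75), *Gt(ROSA)26Sor* (-0.81), *C730002L08Rik* (-0.78), *Snrpd1* (-0.38), *Snhg14* (-0.42), *Gas5* (-0.28), *Rpl17* (-0.47), *Rpl22l1* (-0.46), *Ssh1* (0.34), *Nova2* (0.53) and *Srebf2* (0.19).

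**Figure D4:**
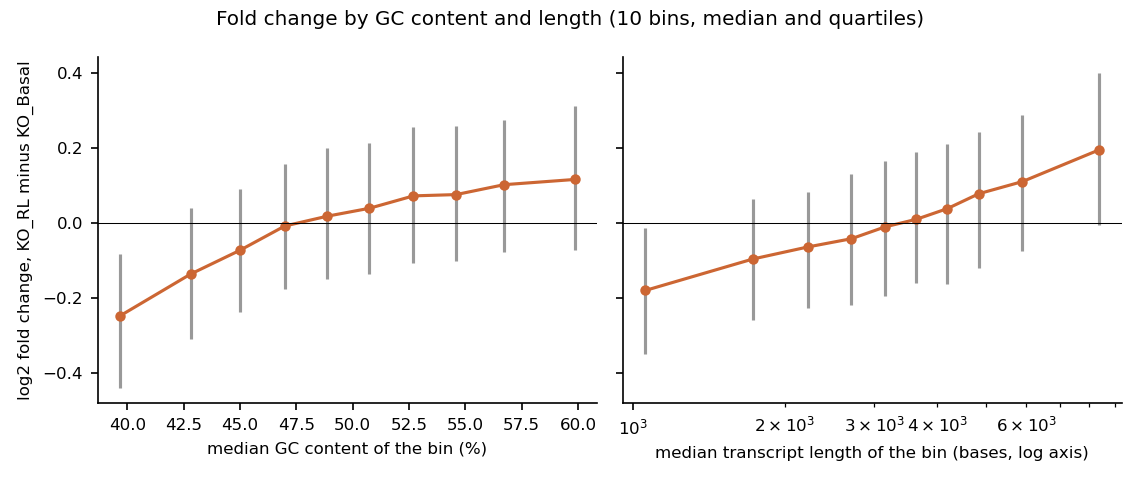
Median log2 difference, KO_RL minus KO_Basal (y axis, points, with quartiles as bars), in 10 bins of genes by GC content (left, %) and by transcript length (right, bases, log scale). It goes from -0.25 at the lowest to 0.12 at the highest GC content, and from -0.18 at the shortest to 0.19 at the longest transcripts.

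Short transcripts of the translation and respiration machinery were lower. Of 79 cytosolic ribosomal protein genes (of 81), 30 fell (38.0%, against 12% of all genes), with a median of -0.34. *Rpl22l1*, a paralog of RPL22, was at 77.5, 81.9 and 76.6 CPM in the KO_Basal mice and 45.3, 50.2 and 47.2 CPM in the KO_RL mice (-0.71 ± 0.12 (SE), adjusted p = 0.0006), with no overlap and narrow groups. *Rpl17*, *Rps14* and *Rpl11* fell by 0.72, 0.70 and 0.68, of which *Rpl17* lost its call without KO_Basal 1 (adjusted p = 0.0540) and *Rps14* without 4 of the 6 mice (up to 0.0889). Several ribosomal genes have near-identical pseudogenes, which makes their counts uncertain. The count of falls was 13 without KO_Basal 1 or KO_Basal 2, 14 without KO_RL 2 and 20 without KO_RL 3. It was 21 after both corrections, when the median was -0.11.

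Of 75 nuclear-encoded oxidative phosphorylation subunits (of 76), 25 fell (33.3%, against 12% of all genes), with a median of -0.26. *Cox6c*, of cytochrome c oxidase, was at 231, 284 and 277 CPM in the KO_Basal mice and 175, 179.9 and 181 CPM in the KO_RL mice (-0.55 ± 0.12 (SE), adjusted p = 0.00475), with the KO_RL mice close together. *Cox7b*, *Ndufb8* and *Atp5l* fell by 0.58, 0.58 and 0.56. This list rested on single mice. It held 5 falls without KO_Basal 2, 7 without KO_RL 2, 8 without KO_Basal 1 and 11 without KO_RL 3. After both corrections 4 were lower and 7 higher, with a median of -0.03. Of 34 proteasome subunits, 12 fell (35.3%, against 12% of all genes), 2 rose (5.88%, against 11.6%) and the median was -0.15. There were 5 falls without KO_Basal 1, 6 without KO_RL 2 and 7 without KO_Basal 2. After both corrections 3 fell and the median was 0.02, of the opposite sign.

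Of 85 splicing factors, 23 were lower (27.1%, against 12% of all genes) and 10 higher (11.8%, near the 11.6% of all genes). The falls numbered 10 after GC correction and after both corrections. *Snrpd1*, a core Sm protein of the spliceosome, was at 68.98, 64.4 and 58.3 CPM in the KO_Basal mice and 37.9, 32.7 and 37.1 CPM in the KO_RL mice (-0.81 ± 0.11 (SE), adjusted p = 0.000127), and *Nova2*, a neuronal splicing regulator, rose from 59.4, 51.7 and 70.2 CPM in KO_Basal to 102, 114 and 115 CPM in KO_RL (0.87 ± 0.15 (SE), adjusted p = 0.000708). The falls included the SR proteins *Srsf1*, *Srsf3*, *Srsf5* and *Srsf7*, and the rises SF3A and SF3B subunits. Without KO_RL 1 or KO_Basal 3 there were 14 and 15 falls, and without KO_Basal 1 or KO_Basal 2 there were 5 rises. The median was -0.13, and -0.01 after both corrections. Of 11 nuclear noncoding RNAs, 3 fell (27.3%, against 12% of all genes). *Rian*, an imprinted host of small nucleolar RNAs, was at 718, 648 and 626 CPM in the KO_Basal mice and 401, 469 and 404 CPM in the KO_RL mice (-0.65 ± 0.10 (SE), adjusted p = 0.000431). *Snhg14*, the long host transcript of the Prader-Willi region, and *Gas5* fell by 0.86 and 0.51. Small RNA genes overlap the exons of *Rian* and *Snhg14*, and *Ube3a* those of *Snhg14* on the other strand, so the reads of these loci cannot be separated here.

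Cholesterol synthesis genes were lower in part. Of 25 genes, 8 fell (32.0%) and 2 rose (8.00%), against 12% lower and 11.6% higher of all genes. The median was -0.20. *Idi1*, the isopentenyl diphosphate isomerase, was at 19.4, 24.97 and 23.4 CPM in the KO_Basal mice and 12.5, 14.4 and 13.8 CPM in the KO_RL mice (-0.69 ± 0.13 (SE), adjusted p = 0.00148). *Insig1*, a sterol sensor and itself a sterol-regulated gene, was at 69.9, 73.7 and 75.4 CPM in the KO_Basal mice and 55.5, 47.9 and 48.6 CPM in the KO_RL mice (-0.52 ± 0.09 (SE), adjusted p = 0.000682). *Srebf2*, the transcription factor of the pathway, was at 162, 162 and 163 CPM in the KO_Basal mice and 215, 213 and 221 CPM in the KO_RL mice (0.41 ± 0.06 (SE), adjusted p = 0.000389). The groups did not overlap in any of these. *Msmo1*, *Hmgcs1*, *Cyp51*, *Sc5d*, *Stard4* and *Nsdhl* fell by 0.28 to 0.40. In KO_OL against the same KO_Basal mice, 7 of the 25 were higher and 2 lower, with a median of -0.00.

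Markers of microglia, the immune cells of the brain, were lower in part. Of 17 microglia markers, 8 fell (47.1%) and *Laptm5* rose (5.88%), against 12% lower and 11.6% higher of all genes. The median was -0.35. The rise of *Laptm5* was lost without each of KO_Basal 1, KO_Basal 2, KO_Basal 3, KO_RL 1 and KO_RL 3, and under GC correction. *P2ry12*, the ADP receptor of resting microglia, was at 64.1, 62.5 and 57.1 CPM in the KO_Basal mice and 31.3, 32.5 and 31.9 CPM in the KO_RL mice (-0.92 ± 0.08 (SE), adjusted p = 8.43e-06). *Gpr34*, a lysophosphatidylserine receptor, was at 23.9, 23.99 and 20.2 CPM in the KO_Basal mice and 8.68, 9.62 and 9.54 CPM in the KO_RL mice (chrX:13632089-13640858; -1.20 ± 0.12 (SE), adjusted p = 1.14e-05). In both genes the KO_RL mice lay within a narrow band well below the KO_Basal mice, and no fit without 1 mouse lost the call. *Tyrobp*, *Aif1*, *Ctss*, *Siglech* and *Cx3cr1* fell by 0.35 to 0.62. *Csf1r*, the receptor microglia need for survival, was at 105, 109 and 108 CPM in the KO_Basal mice and 136, 113 and 129 CPM in the KO_RL mice (0.22 ± 0.09 (SE), adjusted p = 0.0904), and *Tmem119* at 23.5, 25.4 and 22.7 CPM in the KO_Basal mice and 34.3, 24.98 and 29.1 CPM in the KO_RL mice (0.28 ± 0.12 (SE), adjusted p = 0.095). Neither passed, and both were on the higher side. The list held 4 falls without KO_Basal 2 or KO_RL 2 and 5 without KO_Basal 1. After both corrections it was 4.

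Among 20 astrocyte markers, 3 fell (15%) and *Slc1a2* rose (5%), against 12% lower and 11.6% higher of all genes. *S100b*, a calcium-binding protein, was at 193, 188 and 157 CPM in the KO_Basal mice and 124, 98.4 and 102 CPM in the KO_RL mice (-0.73 ± 0.14 (SE), adjusted p = 0.00145), and *Slc1a2*, the main glutamate transporter, at 2367, 2521 and 2532 CPM in the KO_Basal mice and 3529, 3876 and 3587 CPM in the KO_RL mice (0.57 ± 0.10 (SE), adjusted p = 0.00119). Of 18 endothelial markers, 5 fell (27.8%) and 2 rose (11.1%), the rises near the 11.6% of all genes. There were 2 falls without KO_Basal 3, KO_RL 2 or KO_RL 3 and 3 without KO_Basal 2 or KO_RL 1. *Itm2a*, a membrane protein, was at 96.8, 104 and 93.7 CPM in the KO_Basal mice and 52.4, 48.8 and 55.2 CPM in the KO_RL mice (-0.90 ± 0.11 (SE), adjusted p = 8.72e-05), while *Slc2a1*, the glucose transporter GLUT1 of the blood-brain barrier, rose from 94.1, 99.9 and 89.4 CPM in KO_Basal to 164, 152 and 167 CPM in KO_RL (0.76 ± 0.11 (SE), adjusted p = 0.000198). The 2 genes moved in opposite directions in the same mice. Among 23 oligodendrocyte genes *Aspa*, which breaks down N-acetylaspartate, fell from 26.5, 34.8 and 28.1 CPM in KO_Basal to 18.2, 12.5 and 12.1 CPM in KO_RL (-1.03 ± 0.22 (SE), adjusted p = 0.00326), and the median was 0.00. In all 2 of the 23 (8.70%) were lower, against 12% of all genes, and 9 were with the choroid plexus covariate. *Opalin*, a myelin membrane protein, fell by 0.65 and not without KO_Basal 2, KO_RL 2 or KO_RL 3 (adjusted p up to 0.0781).

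Of 18 genes of immature neurons and neurogenesis, *Sox2*, *Elavl4* and *Neurod1* fell (16.7%) and *Top2a* rose (5.56%), the last with overlapping groups. Over all genes the shares were 12% lower and 11.6% higher. *Neurod1* and *Top2a* each lost the call in 4 of the 6 fits without 1 mouse, with adjusted p up to 0.128 and 0.112. *Sox2*, a factor of neural stem cells and astrocytes, was at 42.8, 44.4 and 46.8 CPM in the KO_Basal mice and 29.3, 28.3 and 28.1 CPM in the KO_RL mice (-0.63 ± 0.11 (SE), adjusted p = 0.00121). *Dcx*, the marker of newborn neurons, was at 28.7, 23.04 and 30.3 CPM in the KO_Basal mice and 19.4, 23.1 and 28.8 CPM in the KO_RL mice, which overlapped (-0.20 ± 0.18 (SE), adjusted p = 0.446). Of 15 dentate granule neuron markers 2 rose and 3 fell, *Calb1* among the latter by 0.49, and of 12 CA1 markers 2 rose and 2 fell, against 11.6% and 12% of all genes. The dentate rises were lost without KO_Basal 1, KO_Basal 2, KO_RL 1 or KO_RL 3, and the CA1 rises without KO_Basal 1 or KO_RL 2. No fall in the dentate list held without KO_Basal 3, KO_RL 1 or KO_RL 2, and neither CA1 fall without KO_Basal 1, KO_Basal 3, KO_RL 1 or KO_RL 3. The 12 vascular smooth muscle markers, the 12 thalamic and habenular markers and the 18 listed hypothalamic markers (of 21) held no call, and the 15 fibroblast markers held 1, *Dcn*. The 4 pituitary and 3 red blood cell markers listed did not pass either. *Pmch*, a hypothalamic neuropeptide, was at 52.6, 0.506 and 1.11 CPM in the KO_Basal mice and 0.394, 0.122 and 0.181 CPM in the KO_RL mice (adjusted p = 0.0669), with KO_Basal 1 apart from all other mice.

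The leading rises outside the choroid plexus included genes of chromatin and signalling. To name the rises not led by that tissue, genes whose log2 values followed the choroid plexus mean over the 18 libraries with r of 0.5 or more were set aside, a choice made after the values were seen. *Plin4* was first, followed by *Nptxr*, *Zbtb16*, *Hdac4*, *Fosb*, *Crebbp*, *Pvrl1*, *Cdkn1a*, *Irs2*, *Mcc*, *Egr4* and *Zhx3*. *Hdac4*, a histone deacetylase that shuttles with neuronal activity, went from 16.6, 14.9 and 16.4 CPM in KO_Basal to 38.4, 46.1 and 37.7 CPM in KO_RL (1.29 ± 0.09 (SE), adjusted p = 2.13e-06). *Crebbp*, the CREB-binding acetyltransferase, was at 27.4, 25.99 and 30.5 CPM in the KO_Basal mice and 61.8, 65.4 and 67.1 CPM in the KO_RL mice (1.19 ± 0.13 (SE), adjusted p = 2.34e-05), and *Irs2*, an insulin receptor substrate, at 29.02, 28.1 and 32.1 CPM in the KO_Basal mice and 60.5, 65.7 and 63.9 CPM in the KO_RL mice (1.07 ± 0.13 (SE), adjusted p = 7.88e-05). For all 3 the KO_RL mice were more than 1.5 times above every KO_Basal mouse. *Nptxr*, the neuronal pentraxin receptor, went from 7.41, 8.01 and 6.15 CPM in KO_Basal to 20.8, 21.5 and 24.8 CPM in KO_RL (1.52 ± 0.17 (SE), adjusted p = 3.03e-05), but its exons overlap those of Npcd on the same strand and the reads cannot be divided between them.

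The 12 largest falls were *AF357359*, *Rpph1*, *Clec2d*, *Gt(ROSA)26Sor*, *C730002L08Rik*, *Tmem196*, *Gm14295*, *Gpr34*, *Otof*, *Arxes2*, *2610100L16Rik* and *Mir703*. *Clec2d*, a lectin ligand of an inhibitory receptor on natural killer cells, was at 11.3, 10.9 and 12.6 CPM in the KO_Basal mice and 3.70, 3.02 and 4.08 CPM in the KO_RL mice (-1.46 ± 0.14 (SE), adjusted p = 1.14e-05). *Tmem196* went from 22.2, 15.9 and 14.2 CPM in KO_Basal to 5.19, 7.79 and 6.46 CPM in KO_RL (-1.29 ± 0.18 (SE), adjusted p = 0.000142) and *Arxes2* from 61.5, 52.3 and 52.2 CPM in KO_Basal to 21.8, 28.2 and 21.7 CPM in KO_RL (-1.18 ± 0.11 (SE), adjusted p = 1.01e-05). *AF357359*, a symbol not found in the annotation used here, was at 47.5, 39.03 and 35.4 CPM in the KO_Basal mice and 8.65, 18.7 and 10.03 CPM in the KO_RL mice (-1.69 ± 0.26 (SE), adjusted p = 0.000309). All 4 were separated between the groups, which the choice of these 12 genes required. *Rpph1* lies across Ccnb1ip1 and *2610100L16Rik* across Mir124a-2, so reads on the overlaps cannot be assigned to 1 gene. *Gt(ROSA)26Sor* overlaps *Thumpd3* on the other strand. *Otof* fell by 1.20 (adjusted p = 0.0432) and lost its call in every fit without 1 mouse.

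Original learning and wild-type training give the context. KO_RL and KO_OL share the KO_Basal mice, and their changes from KO_Basal are set side by side here. The direct test of KO_RL against KO_OL is given further on. KO_OL differed from KO_Basal in 3600 genes (23.5%) and WT_RL from WT_Basal in 2407 (15.7%). The median of the immediate early list was 0.32 in KO_RL, 0.39 in KO_OL and 0.40 in WT_RL, each against its untrained mice. For chaperones it was 0.25, 0.24 and 0.30, for glucocorticoid-induced genes 0.48, 0.19 and 0.52, and for cholesterol genes -0.20, -0.00 and -0.11. Ribosomal protein genes had medians of -0.34, -0.28 and -0.07, and microglia markers -0.35, -0.29 and -0.11. The choroid plexus markers had medians of 2.17, 2.41 and -0.62. No list was tested for these differences.

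Single genes can be set side by side in the same order, as log2 differences of KO_RL, KO_OL and WT_RL from their untrained mice. *Fosb* stood at 1.28, 1.25 and 1.36, and *Actb* at 0.72, 0.84 and 0.49. *P2ry12* was lower throughout, at -0.92, -0.91 and -0.80, as was *Cfl2* at -0.57, -0.62 and -0.62. The values of *Plin4* were 2.06, 0.49 and 2.45, those of *Cdkn1a* 1.07, 0.42 and 0.996, and those of *Map3k6* 0.95, 0.20 and 0.82. In these 3 glucocorticoid-induced genes the value after original learning was the smallest, and KO_RL minus KO_OL did not pass in any of them (adjusted p from 0.172 to 0.526). *Hspa1a* was highest after original learning, with 0.88, 1.94 and 0.87. *Rac3* was at -0.67, -0.48 and -0.36 and *Gabrg1* at -1.09, -0.78 and -0.44, of which the WT values did not pass.

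**Figure D5:**
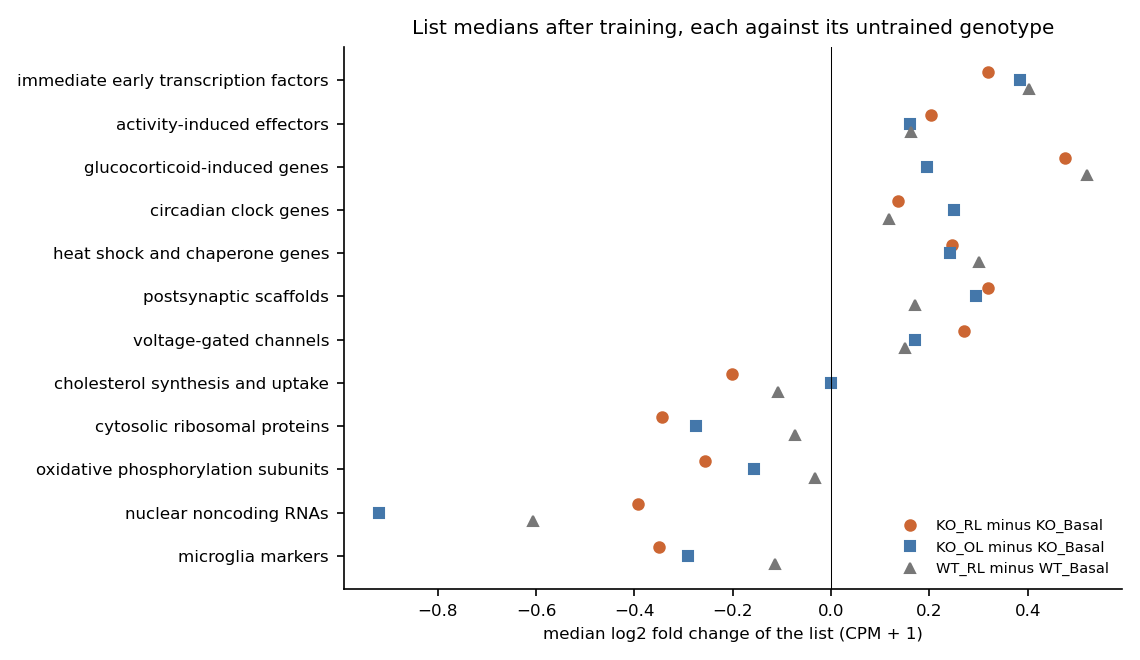
Median log2 difference of CPM + 1 over the members of 12 gene lists (y axis), for KO_RL minus KO_Basal (circles), KO_OL minus KO_Basal (squares) and WT_RL minus WT_Basal (triangles). Glucocorticoid-induced genes lie at 0.48 for KO_RL, 0.19 for KO_OL and 0.52 for WT_RL, and cholesterol genes at -0.20, -0.00 and -0.11 in the same order.

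The direct comparison of KO_RL with KO_OL called 3 genes (0.0196%), and 737 (4.81%) had an unadjusted p under 0.05. *Hif3a*, a hypoxia-inducible factor that is also a glucocorticoid target, was at 7.95, 8.61 and 8.66 CPM in KO_Basal, at 4.63, 6.89 and 6.98 CPM in KO_OL and at 14.3, 17.2 and 15.9 CPM in KO_RL. It was lower after original and higher after reversal learning than in untrained mice, and the groups did not overlap. KO_RL minus KO_OL was 1.24 (adjusted p = 0.000305). *Fam214a* was at 30.4, 33.5 and 33.3 CPM in KO_OL and 44.8, 59.0 and 53.7 CPM in KO_RL (0.67, adjusted p = 0.0172), with KO_Basal at 44.4 to 50.3 CPM, a range that holds KO_RL 1. *Mlph*, melanophilin, reached 2.66 to 3.37 CPM in KO_RL against 0.926 to 1.49 CPM in KO_OL (0.81, adjusted p = 0.0486). Without KO_OL 1, KO_OL 2, KO_OL 3, KO_RL 2 or KO_RL 3, 1 gene was called. *Zbtb16* was at 53.2, 51.1 and 49.2 CPM in KO_OL, between its KO_Basal and KO_RL levels, and at 0.86 (adjusted p = 0.098) it did not pass.

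Whether the change with reversal training differed between KO and WT mice was tested as a difference of differences. The test in limma called 0 genes (0.00%), 765 (4.99%) had an unadjusted p under 0.05, and limma's voom on recovered reads also called 0. The smallest unadjusted p values belonged to *Rit2*, *Ctxn2*, *Foxp1*, *Wnt2b*, *2810417H13Rik* and *Slc17a6*. *Rit2*, a small GTPase of neurons, was at 109, 98.1 and 103 CPM in the KO_Basal mice and 61.1, 69.9 and 64.9 CPM in the KO_RL mice and at 79.6, 91.8 and 91.0 CPM in WT_Basal and 79.7, 80.7 and 77.6 CPM in WT_RL. The log2 change was -0.65 in KO and -0.14 in WT mice, and the difference of -0.51 did not pass after adjustment (0.908). *Ctxn2*, a small membrane protein, was at 15.99, 12.2 and 12.1 CPM in the KO_Basal mice and 7.98, 8.86 and 8.06 CPM in the KO_RL mice against 9.16 to 10.5 CPM in WT_Basal and 9.88 to 12.2 CPM in WT_RL. Only KO_Basal 1 lay above all other libraries of those 4 groups. A count of 0 does not show that the genotypes responded alike. Without WT_RL 1 or WT_RL 3, the libraries with the lowest and the highest choroid plexus sums, the test called 32 and 43 genes.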

How the data were processed

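RNA of 18 hippocampi was sequenced by the authors as 100-bp paired reads on a HiSeq 2000 from TruSeq stranded mRNA libraries. They aligned reads to mm10 with STAR 2.5.1, counted them per gene with its count module and applied TMM in edgeR 3.12.1 under R 3.3.0. The strand setting of the counting is not given in the sources used here. The deposited table holds log2 values for 15329 genes, 1 column per library. The methods describe CPM floored at 1, but the deposited log2 values are log2(CPM + 1), since after undoing this transform 100% of values were whole numbers of 1 step per library (tolerance 0.01). The step gave the reads per gene. Pairs of libraries of a group differed by a chi-square per gene of 11.9 to 39.0 against counting noise, so intervals from counts, which cover counting error only, are not given.

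Groups were taken from the labels. limma 3.58.1 (R 4.3.3) was fitted to the deposited values with 1 mean per group over all 18 libraries, eBayes with trend and 12 residual degrees of freedom. Contrasts were KO_RL against KO_Basal, KO_RL against KO_OL, WT_RL against WT_Basal, KO_OL against KO_Basal and the difference between genotypes, two-sided, with Benjamini-Hochberg adjustment over all genes. Differences are of log2(CPM + 1), which understates those of low genes. Lists are described by counts and medians. The script was tested on simulated data.

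Named genes are the 12 largest rises and falls among called genes without overlap and up to 4 called genes per list by size (or the 2 smallest p). To these were added the 6 smallest p of KO_RL against KO_OL and of the difference between genotypes, *Ccny* and the actin genes of the study's text. Others named from the lists were chosen after their values were seen. A few genes are not reported here. Members, lists and tests were chosen with earlier results of these data known. GC content, length and exon overlaps came from GENCODE M21 (mm10), which held 14769 symbols directly and 455 under a later symbol, and 105 were not found. Promoters came from RefSeq (GRCm38.p6).

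Alternatives changed the pseudocount, floor, filter, scaling, variance model, weights, samples, GC and length trends and values (voom on recovered reads), left out each mouse, or added a replicate block. GC and length correction together and a choroid plexus covariate were added after the data were seen.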

Additional observations from a re-analysis of the deposited data

Results flagged for a closer look

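*Foxp1*, a forkhead transcription factor of CA1 and striatal neurons, moved in opposite directions with reversal training in the genotypes. It was at 59.5, 58.1 and 61.8 CPM in the KO_Basal mice and 76.3, 81.9 and 83.7 CPM in the KO_RL mice, and at 81.3, 76.5 and 71.0 CPM in WT_Basal and 68.2, 47.9 and 56.7 CPM in WT_RL. Among the named genes it was flagged because every KO_RL mouse lay above every KO_Basal mouse and every WT_RL mouse below every WT_Basal mouse. This separation was the rule of choice and is not separate support. The change was 0.43 ± 0.14 (SE), adjusted p = 0.0375 in KO mice and -0.41 in WT mice on the log2 scale, a difference of 0.84 (unadjusted p = 0.00061, adjusted p = 0.908 in limma), so that the adjusted test of the difference did not pass. The untrained mice of the genotypes did not overlap either.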

How the results depend on the processing

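The count of genes that differed between KO_RL and KO_Basal, 3612, was 6990 with library weights and 1935 after correction for GC content and length, which kept 1448 of the calls. Higher genes numbered 3479 and 1006 and lower genes 3511 and 929 in these fits. Leaving out 1 mouse gave 2091 to 3224 genes, 961 to 1559 higher and 1130 to 1665 lower. The 801 genes past 1.5-fold became 461 with log2(CPM + 4), 1265 with voom, 448 after both corrections and 677 to 991 without 1 mouse. The genotype difference of 0 genes became 24 with the choroid plexus covariate and 0 to 43 without 1 mouse. The 3 genes of KO_RL against KO_OL became 8 with CPM floored at 1, 6 after length correction, 127 with library weights, 7 after both corrections, 5 with the covariate, 0 with only the groups compared and 1 to 3 without 1 mouse.

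Deviations of same-numbered KO_Basal and KO_RL mice from their group means had r of 0.14, -0.15 and -0.01. With 3 mice a group these values cannot tell whether same-numbered mice shared a litter or batch. A replicate block gave 3608 genes, 3425 of them shared, and changed the call of 7 of 145 named values. Of 124 named genes called, 56 were called in every alternative and 76 in every fit without 1 mouse. With only the groups compared, 50 ribosomal protein genes were lower in place of 30, and 21 choroid plexus markers, 14 channels and 9 vesicle genes were higher in place of 12, 9 and 5.

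Direction reversed, in genes that were not called except *Kcne2*, under the covariate for *Kcne2* (-0.049), *Des* (-0.016), *Lhb* (-0.25), *Alas2* (-0.38), *Pak3* (0.039), *Pak6* (0.22), *Acta1* (0.0033) and *Acta2* (-0.12). It also reversed for *Pak3* under GC correction with and without the block (0.14 in each), for *Slc4a1* (-0.017) and *Limk1* (-0.0030) with both corrections, for *Pak6* with library weights (0.0072) and for *Wasl* with length correction (-0.019) and quantile normalization (-0.044). With CPM floored the difference of *Slc4a1* was 0 and had no direction. Without 1 mouse, *Alas2* ranged from -0.14 to 0.34, *Ssh3* from -0.29 to 0.044 and *Wasl* from -0.044 to 0.091. The cause was not tested. With 3 mice a group, a gene that did not pass may still differ.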
